A study of Mus musculus with 35 samples.

Results

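Tight junctions and desmosomes hold the cells of an epithelium together, and 10 of their genes were followed across a mouse reprogramming series: Cldn3, Cldn4, Cldn6, Cldn7, Ocln, Epcam, Dsg2, Dsp, Pkp3 and Spint1. They were taken by name from a table of 21350 genes, and all 10 were found in it. Values are normalized tag counts, which are deposited as whole numbers and carry no read depth. A gene was tested when 2 or more libraries had a value of 10 or above, which held for 13860 genes and for 7 of the 10. Cldn6, Cldn7 and Ocln did not reach it and are given by level only.

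Messenger RNA was sequenced from mouse cells infected with factor combinations labelled OB, OA and ODR and then kept in iCD1, a reprogramming medium. The labels do not spell these combinations out or name the starting cell, while the series' title and design text speak of reprogramming by Oct4 with Kdm2b and of the Polycomb complex PRC1.1. Without BMP4 there were 2 OB, 2 OA and 2 ODR libraries at day 1. At day 6 there were 4 OB, 3 OA and 2 ODR libraries, and at day 14 there were 3 of each. With BMP4 at 10 ng/ml, given from the change to iCD1 on, there were 2 OB libraries and 1 ODR library at day 6. Unreplicated libraries came from cells labelled ODB and ODDR at day 9 with and without BMP4, from mouse embryonic stem cells (mESC) and from mouse embryonic fibroblasts (MEF). The labels do not say that replicates were separate cultures, so p-values measure the spread between these libraries, which may be technical.

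The factor labels were checked by Kdm2b and Kdm2a, related histone demethylase genes. The highest value in the table, 18690, was that of Kdm2b in all day 1 and day 6 libraries of OB cells without BMP4, and Kdm2a reached it in 6 of the 8 OA libraries. The library labelled OA day 14 replicate 2 went against its label: Kdm2a was 721 there, against 18690 in both of the other OA day 14 libraries. Its Pearson correlation across genes was 0.889 and 0.893 with those 2 libraries, while their own was 0.965. Over the 13853 tested genes that are not among the 10, it correlated at 0.961 with the day 9 library with BMP4. It also widened the spread that the model shares among all groups, so calls of the junction genes that turn on it are given with and without it. Identical values at every gene were found in 2 pairs of columns. ODR day 6 replicate 3 equalled ODR with BMP4 day 6 replicate 2 and was left out of both groups, and the day 9 libraries with BMP4 under the labels ODB and ODDR were 1 library. In that library Kdm2b was 239, against 18690 in ODB without BMP4 and 452 in ODDR without BMP4. The mESC library had a summed level of 7808 over 6 pluripotency genes, and the MEF library 52018 over 7 fibroblast genes.

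Claudins and occludin are membrane proteins that seal the space between epithelial cells at the tight junction, and each claudin gives the seal its own permeability. Desmosomes are the spot welds below it: desmogleins such as Dsg2 bridge the cells, plakophilins such as Pkp3 gather them, and desmoplakin (Dsp) ties them to keratin filaments. Epcam is a surface adhesion molecule that binds and stabilises Cldn7, and Spint1 is a membrane inhibitor of the surface protease matriptase that keeps epithelia intact. When fibroblasts are reprogrammed they pass through a mesenchymal-to-epithelial transition in which such genes come on, and BMP signalling is known to promote it. The repressors Zeb1, Zeb2, Snai1 and Snai2 hold epithelial genes down by binding E-boxes, and Grhl and Ovol factors act on the epithelial side.

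Promoter windows of 8 of the 10 genes were searched, from RefSeq on GRCm38.p6. These were 10 windows from 250 bases before to 50 bases after an annotated start. The E-box CAGGTG, searched on both strands so that it also reads CACCTG, was present in 7 of these 8 genes and in 8 of the 10 windows. Over all 32851 promoter windows of the same length, 20.2% held it. Of the genes searched, Spint1 was the one without a match. The grainyhead motif AACCNGGTT was in 0 of the 8 genes, against 0.271% of all windows. The motif GGCGCC, bound by BMP Smads, was in the Dsp window, 1 of the 8 genes, against 11.9% of all windows. No matches overlapped, and a match describes letters, not binding. The windows of Cldn4, Cldn3, Epcam and Dsp are shown as examples of members that rose with BMP4 in OB. Dsg2 and Pkp3 rose there too but were not among the genes searched. Every CAGGTG or CACCTG is in capitals, 5′ to 3′ on the strand of the gene. Cldn4 lies at chr5:134946885-134947184 on the minus strand and Cldn3 at chr5:134985964-134986263 on the plus strand. Epcam lies at chr17:87635729-87636028 and Dsp at chr13:38151044-38151343, both on the plus strand.
Cldn4: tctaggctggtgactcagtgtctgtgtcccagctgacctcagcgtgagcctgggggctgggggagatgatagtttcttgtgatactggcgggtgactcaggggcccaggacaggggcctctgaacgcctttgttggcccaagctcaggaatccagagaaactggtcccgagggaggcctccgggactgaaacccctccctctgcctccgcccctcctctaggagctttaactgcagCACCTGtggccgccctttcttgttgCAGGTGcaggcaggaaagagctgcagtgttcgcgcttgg
Cldn3: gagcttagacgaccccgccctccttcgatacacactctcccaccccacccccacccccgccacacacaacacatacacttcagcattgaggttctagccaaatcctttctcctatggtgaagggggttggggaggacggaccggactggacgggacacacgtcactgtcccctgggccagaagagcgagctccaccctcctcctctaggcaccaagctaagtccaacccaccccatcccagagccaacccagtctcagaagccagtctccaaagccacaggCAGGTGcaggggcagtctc
Epcam: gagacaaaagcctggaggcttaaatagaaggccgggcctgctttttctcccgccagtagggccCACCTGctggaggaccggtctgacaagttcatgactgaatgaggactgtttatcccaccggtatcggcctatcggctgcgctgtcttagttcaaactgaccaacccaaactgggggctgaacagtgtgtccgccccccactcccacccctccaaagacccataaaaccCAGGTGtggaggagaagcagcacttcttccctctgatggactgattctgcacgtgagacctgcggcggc
Dsp: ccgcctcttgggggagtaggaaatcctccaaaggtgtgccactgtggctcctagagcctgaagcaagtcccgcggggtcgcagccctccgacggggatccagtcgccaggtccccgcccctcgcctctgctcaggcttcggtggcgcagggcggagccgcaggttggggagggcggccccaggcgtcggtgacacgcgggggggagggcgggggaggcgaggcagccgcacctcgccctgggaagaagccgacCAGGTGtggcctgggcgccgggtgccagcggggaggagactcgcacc
Cldn4 and Epcam hold 2 E-boxes each in these windows, and Cldn3 and Dsp hold 1 each. Cldn4 (chromosome 5, 134945119 to 134946934, minus strand) and Cldn3 (chromosome 5, 134986214 to 134987472, plus strand) are neighbours, 39279 bases apart.

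**Figure D1:**
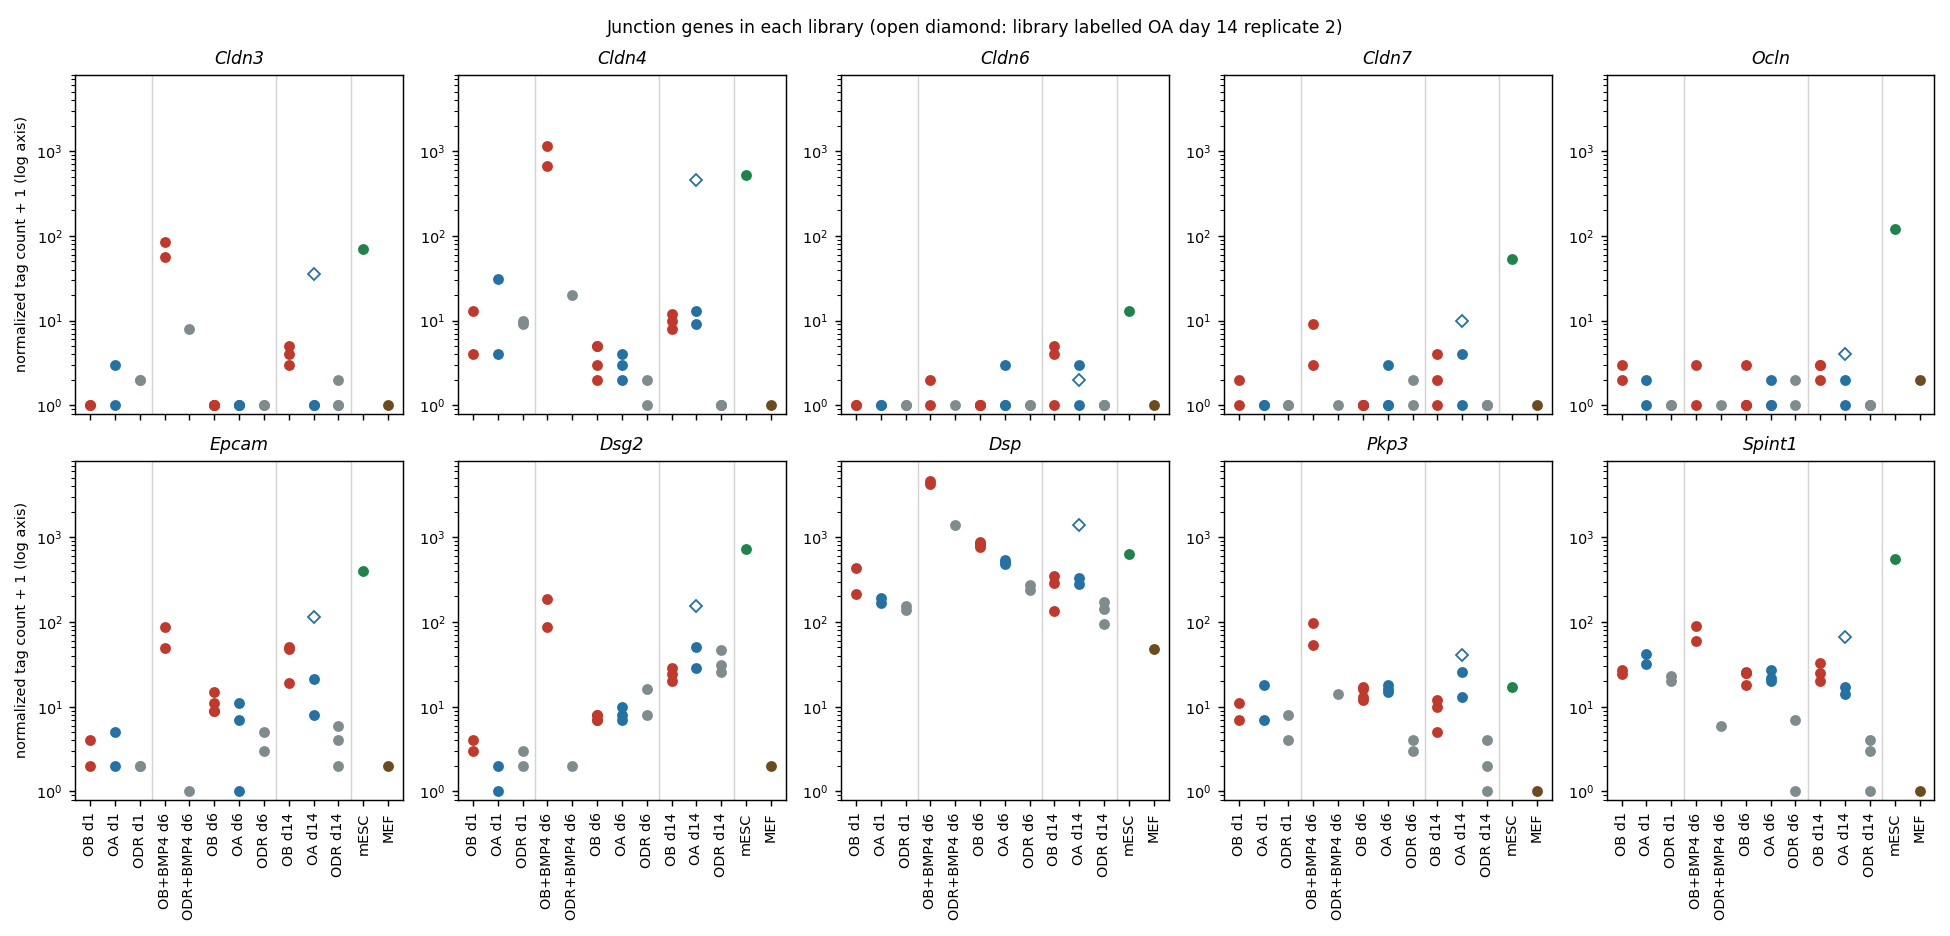
Normalized tag count plus 1 (log axis) of the 10 junction genes in each library of the tested groups and in mESC and MEF. Each point is 1 library, and the open diamond is the library labelled OA day 14 replicate 2. Cldn4 stood at 657 and 1148 in the OB libraries with BMP4, against 1 to 4 in those without.

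BMP4 was added to OB cells and the question was what it changed by day 6. Cldn3, Cldn4, Epcam, Dsg2, Dsp and Pkp3 rose, 6 of the 7 genes tested, while 15% of all genes tested rose in this comparison. None of the 7 fell. Cldn3 passed the filter on low values only through the OB libraries with BMP4, so it could be tested only because it was high there, while Cldn6, Cldn7 and Ocln, low in those libraries, could not be. Of the 6 genes that passed the filter without these libraries, 5 rose, against 14.5% of all genes that passed it that way, and their median change was 2.51 on the log2(value + 1) scale, against -0.02. Bulk RNA cannot tell more epithelial cells from more RNA per cell.

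Of the 4 claudins, Cldn3 and Cldn4 had values high enough to test. Cldn4 stood at 657 and 1148 in OB with BMP4, against 2, 1, 4 and 4 in OB without it, a log2 fold change of 7.96 ± 1.09 (SE, adjusted p = 3.49e-05). Cldn3 stood at 55 and 83 in OB with BMP4 and was listed at 0 in all 4 OB libraries without it (adjusted p = 8.16e-05). Both BMP4 libraries lay above every library without BMP4 for each gene. For comparison, the mESC library had 527 for Cldn4 and 69 for Cldn3, and the MEF library had 0 for both. The other tight junction members stayed near the floor. Cldn7 was 2 and 8 in OB with BMP4, against 0 in all 4 libraries without it. Cldn6 was 1 and 0 with BMP4, against 0 in all 4 without, and Ocln was 0 and 2 with BMP4, against 0 to 2 without.

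Epcam stood at 48 and 86 in OB with BMP4, against 8, 10, 14 and 8 in OB without it. The groups did not overlap, and the log2 fold change was 2.60 ± 0.90 (adjusted p = 0.0343). This call rested on few libraries. The adjusted p was 0.0794 without OB with BMP4 replicate 1 and 0.227 without replicate 2. It was 0.0614, 0.0544 and 0.0645 without OB replicate 1, 2 or 4, and 0.107 with the replicate block.

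All 3 desmosome members rose with BMP4 in OB. Dsg2, the cadherin of the group, stood at 86 and 184 with BMP4, against 6, 7, 6 and 7 without, a log2 fold change of 4.08 ± 0.49 (adjusted p = 1.09e-05). Dsp, the link to keratin, stood at 4217 and 4621 with BMP4, against 837, 879, 773 and 830 without. That is a log2 fold change of 2.41 ± 0.47 (adjusted p = 0.000849). These Dsp values lay above those of all other libraries in the series, mESC included at 627. Pkp3, the plakophilin, stood at 52 and 96 with BMP4, against 11, 12, 16 and 15 without, a log2 fold change of 2.32 ± 0.53 (adjusted p = 0.00272). Without OB with BMP4 replicate 2 the Pkp3 call was lost, at 1.88 and an adjusted p of 0.0668.

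Spint1 stood at 58 and 88 in OB with BMP4, against 24, 17, 25 and 24 in OB without it. The libraries did not overlap, but the log2 fold change of 1.64 ± 0.65 did not pass the test (adjusted p = 0.0629). It passed without OA day 14 replicate 2 in the shared spread (adjusted p = 0.0294), and the count of members higher was then 7 of 7, Cldn3 included, against 17.1% of all genes tested. The fold changes themselves did not move, since that library belongs to neither group.

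In ODR cells BMP4 was followed in 1 library, which the model assumes to vary like the other groups. Dsp rose and Dsg2 fell, 1 of 7 in each direction, against 5.06% of all genes tested higher and 6.46% lower. Dsp was 1409 in ODR with BMP4, against 237 and 271 in ODR without it, a log2 fold change of 2.47 ± 0.67 (adjusted p = 0.023). Dsg2 was 1 with BMP4, against 15 and 7 without, a log2 fold change of -2.50 ± 0.69 (adjusted p = 0.0258). Both are small groups with low Dsg2 values. The Dsg2 call was lost without ODR replicate 1 (-2.00, adjusted p = 0.139), and the Dsp call without ODR replicate 1 or 2 (adjusted p = 0.0817 and 0.0693). With 5 in place of 1 added before the log, the Dsg2 change was -1.37 and its call was lost (adjusted p = 0.148). Both calls were also lost when the shared library was counted as ODR with BMP4 (adjusted p = 0.523 for Dsp and 0.418 for Dsg2). In that library Dsp was 273, Dsg2 6, Cldn4 1 and Cldn3 0, all close to the ODR libraries without BMP4.

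The claudins in ODR with BMP4 were 19 for Cldn4, against 1 and 0 without, and 7 for Cldn3, listed at 0 in both libraries without. Neither passed (adjusted p = 0.126 and 0.158), but both did without OA day 14 replicate 2 in the spread (adjusted p = 0.00539 and 0.000199). Then 3 of 7 were higher, against 7.81% of all genes, and 1 lower, against 10% of all genes. Pkp3 was 13 with BMP4, against 3 and 2 without (adjusted p = 0.0952). Epcam was 0 with BMP4, against 4 and 2, and Spint1 was 5, against 6 and 0, and neither passed (adjusted p = 0.385 and 0.483).

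The difference between both BMP4 responses was tested directly as an interaction, which compares the OB effect with the ODR effect. It passed for Dsg2, 1 of the 7 higher, against 0.714% of all genes tested. The Dsg2 response was larger in OB by 6.58 ± 0.85 on the log2 scale (adjusted p = 0.000683). The Dsp responses differed by -0.06 ± 0.82 (adjusted p = 0.998), with a 95% interval from -1.78 to 1.66. Cldn3 and Cldn4 differed by 3.10 ± 1.59 and 4.13 ± 1.88 (adjusted p = 0.507 and 0.427), sizes that rest in part on the 1 added to values at or near 0. Both passed without OA day 14 replicate 2 (adjusted p = 0.00531 and 0.0442), 3 of 7 in all, against 1.94% of all genes tested. Of these, Cldn3 could be tested only because it was high in the OB libraries with BMP4.

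Set directly against each other with BMP4 in both, OB exceeded ODR for Epcam, Dsg2 and Spint1, 3 of 7 against 1.46% of all genes tested. Epcam was 48 and 86 in OB, against 0 in ODR, with an adjusted p of 0.0181. Dsg2 was 86 and 184 in OB, against 1 in ODR (5.99 ± 0.69, adjusted p = 0.000117). Spint1 was 58 and 88 in OB, against 5 in ODR (3.59 ± 0.92, adjusted p = 0.0486). Cldn4, at 657 and 1148 in OB against 19 in ODR, did not pass (adjusted p = 0.0752). Without OB with BMP4 replicate 2 the Epcam and Spint1 calls were lost (adjusted p = 0.154 and 0.285), and without replicate 1 the Spint1 call was (adjusted p = 0.0694). The Spint1 call was also lost with no filter (adjusted p = 0.0514) and with the replicate block (adjusted p = 0.0831). With OA day 14 replicate 2 left out, 6 of 7 passed, Pkp3 being the exception, against 3.07% of all genes. Cldn3, counted among them, could be tested only because it was high in the OB libraries with BMP4.

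**Figure D2:**
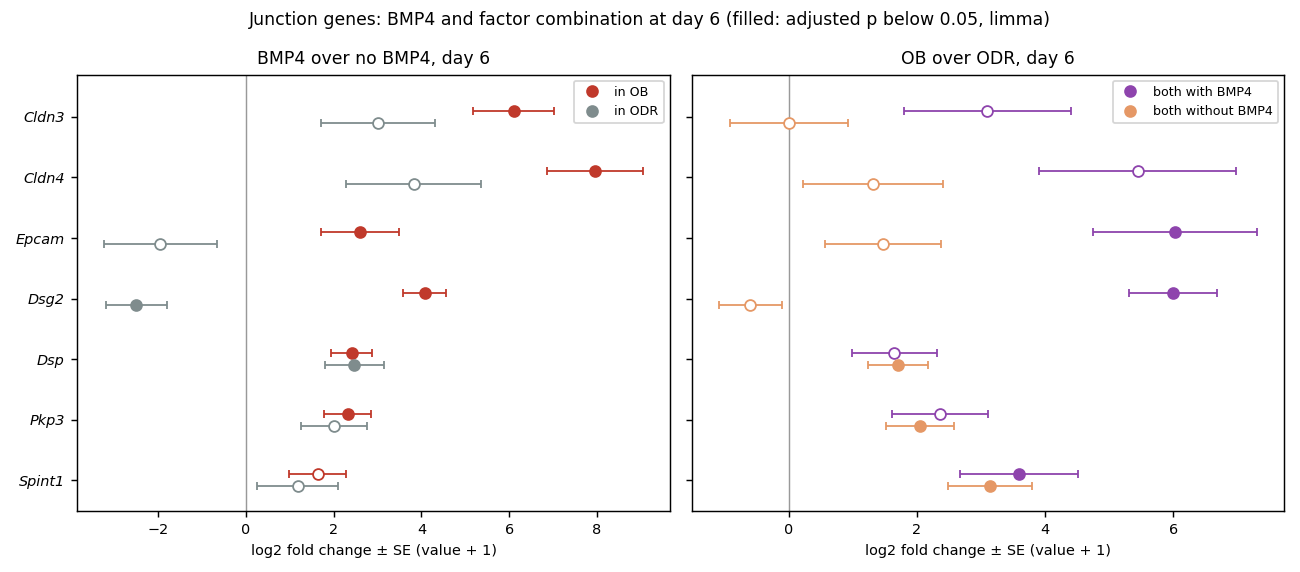
Log2 fold change ± SE on the value + 1 scale at day 6 for the 7 junction genes tested, for BMP4 over no BMP4 in OB and ODR (left) and OB over ODR with and without BMP4 (right). Filled points passed limma's adjusted p below 0.05. Dsg2 lies at 4.08 in OB and -2.50 in ODR, and the size for Cldn3 rests on the 1 added before the log, since it was listed at 0 without BMP4 in both combinations.

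Beyond the 10 genes, other junction genes moved in both directions in OB with BMP4. Of 30 further tight junction genes, 22 were tested, 7 rose and 5 fell, against 15% of all genes tested that rose and 17.5% that fell. Cldn10, Crb3 and Marveld2 passed the filter only through the libraries with BMP4, and 4 of the other 19 rose. Lsr, a tricellular junction protein, stood at 260 and 310 with BMP4, against 84 to 120 without, a log2 fold change of 1.56 ± 0.26 (adjusted p = 0.000187). Amot, which binds polarity and Hippo pathway proteins, rose by 1.99 ± 0.23 (adjusted p = 8.74e-06). Crb3, an apical polarity protein, stood at 10 and 30 with BMP4 and was listed at 0 in all 4 libraries without (adjusted p = 0.000158). Among those that fell was Jam3, an adhesion molecule also found outside epithelia, at 218 and 167 with BMP4, against 812, 896, 826 and 719 without (-2.08 ± 0.18, adjusted p = 5.98e-07). The polarity scaffold genes Inadl and Pard3 fell by 2.06 ± 0.28 and 1.84 ± 0.33 on the log2 scale (adjusted p = 2.9e-05 and 0.000438). The median of those 19 was -0.10, against -0.02 over all genes that passed the filter in the same way.

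Of 12 further desmosome genes, 10 were tested, 3 rose and 1 fell with BMP4 in OB, against 15% and 17.5% of all genes tested. Ppl, a plakin that strengthens the cell envelope, stood at 33 and 129 with BMP4, against 12, 2, 4 and 3 without (3.65 ± 0.84, adjusted p = 0.00276). Jup, the plakoglobin linker shared with adherens junctions, rose by 0.82 ± 0.23, and Pkp2, a second plakophilin of simple epithelia and heart, by 0.74 ± 0.25 (adjusted p = 0.0109 and 0.0314). Without OB with BMP4 replicate 2 the calls of Ppl, Jup and Pkp2 were lost (adjusted p = 0.0872, 0.112 and 0.0978), and that of Pkp2 also without replicate 1 (adjusted p = 0.177) or OB replicate 2, 3 or 4 (adjusted p = 0.0512, 0.0789 and 0.0652). Pkp4, a relative found at adherens junctions, fell by 1.32 ± 0.19 (adjusted p = 5.89e-05). The desmosomal cadherins of stratified epithelium did not pass, Dsg3 being 0 and 6 with BMP4, against 1 to 5 without. Of 4 genes of the surface protease circuit, 2 were tested. Spint2, the sister inhibitor of Spint1, rose by 1.46 ± 0.54 (adjusted p = 0.0457), a call lost without any 1 of the 6 libraries (adjusted p 0.0667 to 0.309). St14, the protease matriptase, was 7 and 18 with BMP4, against 16 to 25 without.

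Regulators of the epithelial state split as follows in OB with BMP4. Of 10 epithelial regulators, 8 were tested, 6 rose and 1 fell, against 15% and 17.5% of all genes tested. Ovol2 passed the filter only through the libraries with BMP4, and 5 of the other 7 rose. Ovol2, a repressor of mesenchymal genes, stood at 30 and 32 with BMP4, against 0, 0, 0 and 1 without (adjusted p = 1.45e-05). Ehf and Klf5, epithelial transcription factors, rose by 2.2 ± 0.58 and 0.85 ± 0.21 (adjusted p = 0.00709 and 0.0056). The Ehf call was lost without either BMP4 library (adjusted p = 0.0504 and 0.0542) and the Klf5 call without replicate 1 (adjusted p = 0.0539). Grhl2, which drives claudin and cadherin genes in other epithelia, went the other way, at 3 and 5 with BMP4, against 19, 16, 32 and 22 without (-2.2 ± 0.50, adjusted p = 0.00264). Of 6 mesenchymal repressors, all tested, 3 fell and 0 rose, against 17.5% and 15% of all genes tested. Zeb1 stood at 166 and 140 with BMP4, against 395 to 439 without (-1.43 ± 0.32, adjusted p = 0.00255). Twist1 and Twist2, basic helix-loop-helix factors of mesenchyme, fell by 1.48 ± 0.17 and 1.55 ± 0.39 (adjusted p = 6.14e-06 and 0.00535). The Twist2 call was lost without OB with BMP4 replicate 2 (adjusted p = 0.0662). Zeb2 was 618 and 457 with BMP4, against 400 to 483 without, and did not pass.

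In ODR with BMP4, 0 of the 8 epithelial regulators tested passed in either direction by limma, and 1 had an unadjusted p below 0.05. That was Grhl1, a grainyhead factor, at 55 with BMP4, against 0 and 3 without. In OB it was 42 and 43 with BMP4, against 4, 3, 2 and 0 without. Of the 6 mesenchymal repressors 1 rose in ODR, Zeb2, at 818 with BMP4, against 480 and 456 without (0.80 ± 0.21, adjusted p = 0.018). Over all genes tested 5.06% rose and 6.46% fell in this comparison. Among the 22 further tight junction genes 2 rose, Cldn10 and Cldn1, and 3 fell, Cldn10 having passed the filter only through the ODR library with BMP4. Cldn1 was 1114 with BMP4, against 296 and 393 without (1.70 ± 0.40, adjusted p = 0.0104). The 10 desmosome genes had 0 higher and 3 lower, among them Dsc2, a desmocollin, at 19 with BMP4, against 46 and 47 without (adjusted p = 0.00772). Counting the shared library as ODR with BMP4 ended the ODR calls of Zeb2, Cldn10, Cldn1 and Dsc2 (adjusted p = 0.675, 0.608, 0.503 and 0.466). Without ODR replicate 2 the Zeb2 call was lost (adjusted p = 0.0799), and without ODR replicate 1 those of Cldn1 and Cldn10 (adjusted p = 0.0616 and 0.0588). The interaction of both responses passed for Ovol2 (4.75 ± 1.02, adjusted p = 0.0286), which was 0 in ODR with and without BMP4. Ovol2 could be tested only because it was high in OB with BMP4, and this size rests in part on the 1 added to values of 0. The interaction also passed for Jam3 (-2.34 ± 0.31, adjusted p = 0.000741). The Ovol2 call was lost without either ODR library lacking BMP4 (adjusted p = 0.0696 and 0.0907).

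**Figure D3:**
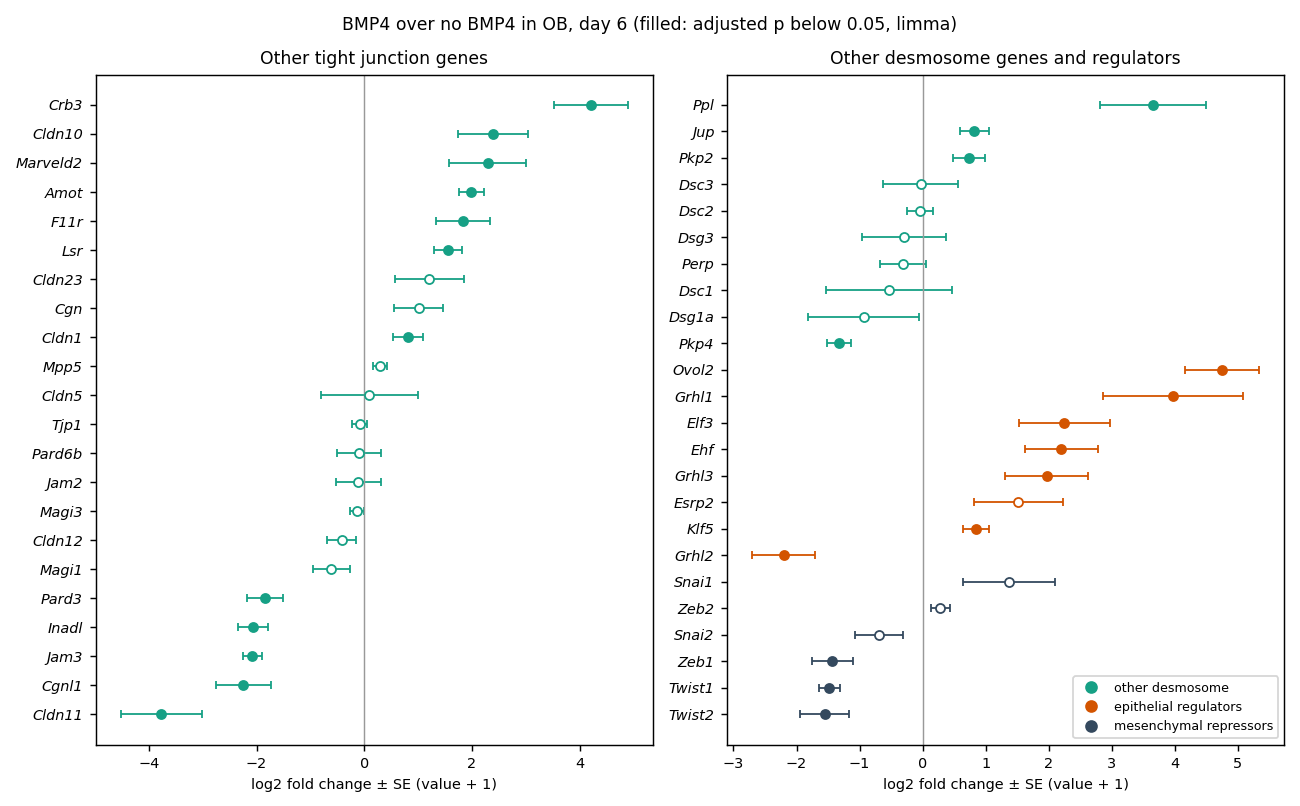
Log2 fold change ± SE on the value + 1 scale for BMP4 over no BMP4 in OB at day 6, for further tight junction genes (left) and for further desmosome genes, epithelial regulators and mesenchymal repressors (right). Filled points passed limma's adjusted p below 0.05. Tight junction genes spread to both sides of 0, with 7 higher and 5 lower, while Ovol2 lies at 4.75 and Zeb1 at -1.43.

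Markers of other cell types moved beside the junction genes in OB with BMP4, and their part in the result was not tested. Of 7 fibroblast genes, 5 fell and 1 rose, Thy1, against 17.5% and 15% of all genes tested. Their levels summed to 5147 and 6057 with BMP4, against 17719 to 30030 without. Col3a1 was at the ceiling of 18690 in OB replicates 1 and 3 without BMP4, which limits those sums. In ODR the sum was 5935 with BMP4, against 14276 and 23403 without. A trophoblast list of 5 genes summed to 529 and 683 in OB with BMP4, against 11 to 15 without. Nearly all of it was Hand1, at 524 and 669, while Elf5, Gcm1 and Tpbpa were at 0 in both libraries. An endoderm list of 6 genes summed to 281 and 381, against 24 to 37, from Sox17, Gata4 and Gata6, while Foxa2, Afp and Ttr were at 0. Keratinocyte markers summed to 18 and 19 with BMP4, against 98 to 121 without. Most of the sum without BMP4 was Trp63, at 91, 96, 80 and 99, against 8 and 1 with it. Krt5 was 0 in both libraries with BMP4 and 0 or 1 without. Krt14 was 0 and 2 with BMP4 and 0 in every library without. Pluripotency genes summed to 193 and 281, against 52 to 98, most of it Sall4, at 172 and 226, with Nanog at 0 and 7. Neural genes summed to 907 and 950, against 1834 to 2500. Endothelial genes summed to 129 and 120, against 155 to 244, and macrophage genes to 302 and 281, against 290 to 492.

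Without BMP4, the factor combinations were compared at each day. At day 1 limma called 0 of the 7 junction genes in OB over ODR, OA over ODR or OB over OA, where 0.88%, 0.0649% and 1.4% of all genes tested were called. At an unadjusted p below 0.05 the counts were 0, 0 and 1, the last being Dsg2. Dsp was 434 and 212 in OB, 193 and 168 in OA, and 154 and 138 in ODR. Spint1 was 26 and 23 in OB, 31 and 41 in OA, and 19 and 22 in ODR. Cldn4 was 3 and 12 in OB, 3 and 30 in OA, and 8 and 9 in ODR. Cldn3, Epcam and Dsg2 were at 4 or below in every day 1 library.

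At day 6 Dsp, Pkp3 and Spint1 were higher in OB than in ODR, 3 of 7, against 5.74% of all genes tested. Spint1 stood at 24, 17, 25 and 24 in OB, against 6 and 0 in ODR, a log2 fold change of 3.14 ± 0.65 (adjusted p = 0.00482). Pkp3 stood at 11, 12, 16 and 15 in OB, against 3 and 2 in ODR (2.05 ± 0.53, adjusted p = 0.0185). Dsp stood at 837, 879, 773 and 830 in OB, against 237 and 271 in ODR (1.71 ± 0.47, adjusted p = 0.0269). In each case the groups did not overlap, but how common that is among all genes is not given. With 2 ODR libraries these calls were sensitive: without ODR replicate 2 the adjusted p was 0.186 for Spint1, 0.173 for Pkp3 and 0.131 for Dsp. Without ODR replicate 1 it was 0.0808 for Pkp3 and 0.174 for Dsp. The Dsp call was also lost without OB replicate 1 (adjusted p = 0.0527) or 2 (adjusted p = 0.0504). The shared library had 273 for Dsp, 3 for Pkp3 and 8 for Spint1.

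At day 6 Dsp in OA lay between the other combinations. It was 512, 478 and 538 in OA, above both ODR libraries and below all 4 OB libraries, but it passed against neither (OA over ODR 1.00 ± 0.50, adjusted p = 0.393; OB over OA 0.70 ± 0.42, adjusted p = 0.369). Pkp3 was 14, 17 and 15 in OA and Spint1 19, 21 and 26. Both were higher than in ODR by 2.23 ± 0.56 and 3.11 ± 0.69 (adjusted p = 0.0427 and 0.0236), 2 of 7 against 1.34% of all genes tested. Leaving out any 1 of the 3 OA libraries or ODR replicate 2 ended both calls (adjusted p 0.0563 to 0.454), and leaving out ODR replicate 1 ended that of Pkp3 (adjusted p = 0.136). Between OB and OA at day 6, limma called 0 of 7 by adjusted p and 0 at an unadjusted p below 0.05, against 7.28% of all genes tested by adjusted p.

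At day 14 the calls took in a claudin and Epcam. In OB over ODR, Cldn4, Epcam, Pkp3 and Spint1 were higher, 4 of 7, but 28% of all genes tested were also higher in this comparison. Epcam stood at 50, 47 and 18 in OB, against 3, 5 and 1 in ODR (3.31 ± 0.85, adjusted p = 0.00302). Spint1 stood at 32, 24 and 19 in OB, against 2, 0 and 3 in ODR (3.48 ± 0.62, adjusted p = 0.000113). Pkp3 stood at 11, 9 and 4 in OB, against 0, 3 and 1 in ODR (2.08 ± 0.50, adjusted p = 0.00181). Cldn4 stood at 11, 9 and 7 in OB and was listed at 0 in all 3 ODR libraries (adjusted p = 0.0108). No OB library overlapped an ODR library for these 4 genes, but how common that is among all genes is not given. Cldn4 is at low values here, and with 5 in place of 1 added before the log its call was lost (adjusted p = 0.15). At day 1 Cldn4 was 3 and 12 in OB and 8 and 9 in ODR. The OB values of day 14 thus lay within those of OB at day 1, while those of ODR were lower than at day 1.

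The remaining members separated less at day 14. Cldn3 was 4, 3 and 2 in OB, against 0, 1 and 0 in ODR (1.64 ± 0.86, adjusted p = 0.119). Dsp was 346, 288 and 135 in OB, against 170, 142 and 94 in ODR (0.85 ± 0.45, adjusted p = 0.116). The Dsp groups overlapped. Both passed without OA day 14 replicate 2 (adjusted p = 0.00022 and 0.0178), and 6 of 7 were then higher, against 30% of all genes. Dsg2 was 28, 23 and 19 in OB, against 30, 46 and 25 in ODR (-0.48 ± 0.46, adjusted p = 0.398). Cldn6 was 3, 4 and 0 in OB, against 0 in every ODR library, Cldn7 was 3, 1 and 0, against 0 in every ODR library, and Ocln was 2, 2 and 1, against 0 in every ODR library.

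In OA at day 14, 4 of 7 were higher than in ODR with all libraries kept, Cldn4, Dsp, Pkp3 and Spint1, against 2.82% of all genes tested. The library labelled OA day 14 replicate 2 stood far above the others for most members. There Cldn4 was 450, Cldn3 34, Epcam 114, Dsg2 155, Dsp 1378, Pkp3 40 and Spint1 66. Its fibroblast list summed to 6774, against 48967 and 47924 in the other OA day 14 libraries, and Hand1 was 51 against 0 in both; their part in the result was not tested. In the other 2 OA libraries Cldn4 was 12 and 8, against 0 in all ODR libraries (adjusted p without replicate 2 = 0.00471). Pkp3 was 12 and 25, Spint1 16 and 13, and Dsp 328 and 278 in those 2, all above the 3 ODR libraries. Without replicate 2 the log2 fold changes were 3.20 ± 0.53 for Pkp3, 2.75 ± 0.59 for Spint1 and 1.19 ± 0.32 for Dsp (adjusted p = 0.00173, 0.0105 and 0.0383). The same 4 of 7 were thus called, against 3.25% of all genes. Without ODR replicate 2 or 3, the Dsp call with all OA libraries kept was lost (adjusted p = 0.0507 and 0.0691). Epcam, at 20 and 7 in the other OA libraries, did not pass with replicate 2 kept (2.88 ± 0.85, adjusted p = 0.057) or left out (1.83, adjusted p = 0.219).

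Between OB and OA at day 14, the calls turned on that same library. With it, Dsg2 and Pkp3 were lower in OB, 2 of 7, against 25.2% of all genes tested, at -1.35 ± 0.46 and -1.51 ± 0.50 (adjusted p = 0.0203 and 0.0171). Without it neither passed, at -0.68 and -1.12 (adjusted p = 0.149 and 0.0875). Leaving out OB replicate 3 also ended both calls (adjusted p = 0.0655 and 0.0919). Without OA replicate 2, Cldn3 was higher in OB, at 4, 3 and 2, against 0 in both OA libraries (adjusted p = 0.000166). That was 1 of 7 against 26.6% of all genes. The counts with and without that library are near or below the shares of all genes.

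**Figure D4:**
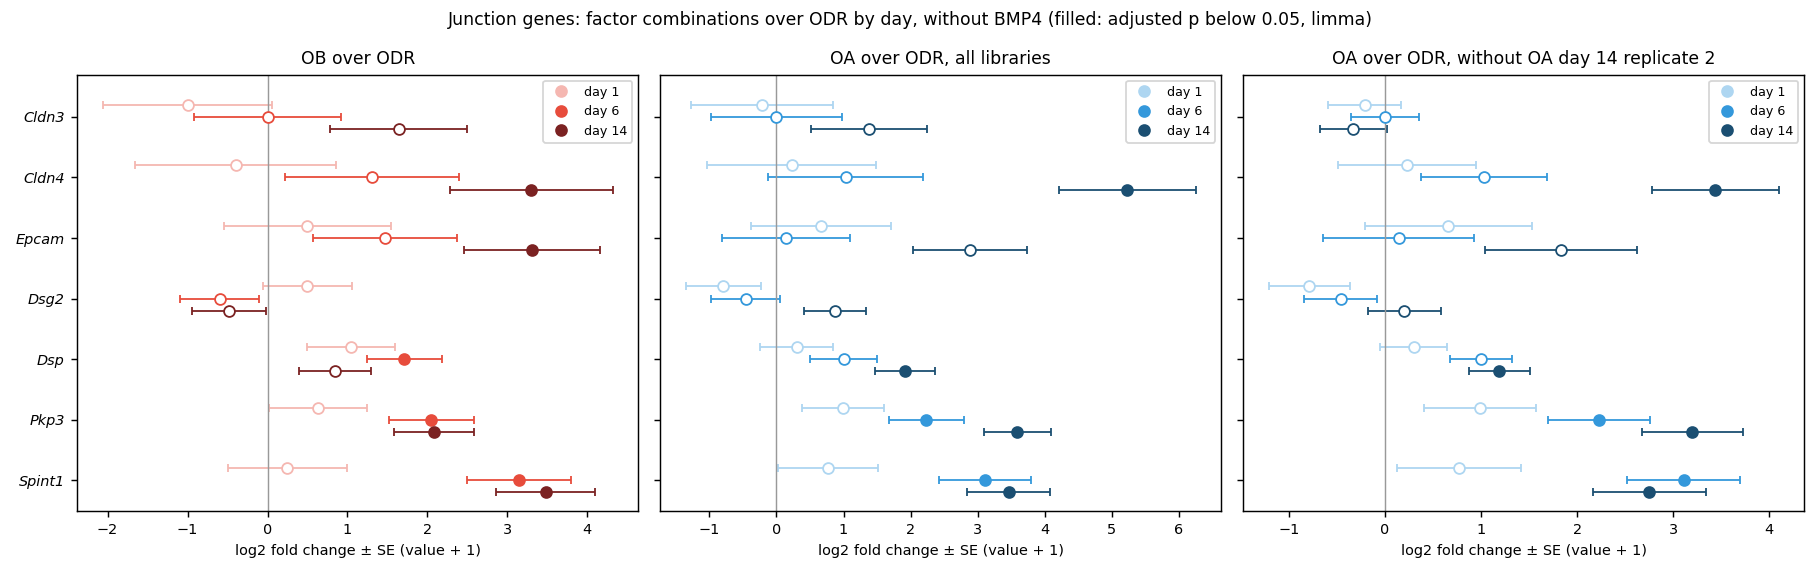
Log2 fold change ± SE on the value + 1 scale of the 7 junction genes tested, at days 1, 6 and 14 without BMP4, for OB over ODR, OA over ODR with all libraries, and OA over ODR without OA day 14 replicate 2. Filled points passed limma's adjusted p below 0.05. Spint1 in OB over ODR lies at 3.14 at day 6 and 3.48 at day 14, and sizes for Cldn4 at day 14 rest on the 1 added before the log.

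At day 14, 6 of 22 further tight junction genes tested were higher in OB than in ODR and 3 lower, against 28% of all genes tested higher and 26.7% lower. The share higher is near that of all genes. Cgn, the tight junction plaque protein cingulin, was 64, 53 and 50 in OB, against 9, 14 and 14 in ODR (2.10 ± 0.43, adjusted p = 0.000473). Marveld2, the tricellular junction protein tricellulin, was 5, 6 and 9, against 1, 0 and 0 (adjusted p = 0.00339). Pard6b, a polarity protein, was 35, 22 and 22 in OB, against 12, 8 and 9 in ODR (1.34 ± 0.39, adjusted p = 0.00676). Inadl was 144, 307 and 338 in OB, against 1476, 1596 and 1492 in ODR, and Cldn1 45, 79 and 88, against 222, 238 and 267 (adjusted p = 2.34e-07 and 1.72e-05). Tjp1, a scaffold under the claudins, was lower, with a log2 fold change of -0.40 ± 0.13 (adjusted p = 0.018), a call lost without OB replicate 3 or ODR replicate 1 (adjusted p = 0.0711 and 0.116).

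Of 10 further desmosome genes tested, Ppl and Dsc3 were higher and Dsg3 and Pkp4 lower in OB at day 14. That is 20% in each direction, against 28% of all genes tested higher and 26.7% lower. The Ppl call was lost without OB replicate 1 (adjusted p = 0.0559), and that of Dsc3 without ODR replicate 1 (adjusted p = 0.082). Grhl2 was 6, 11 and 6 in OB, against 2, 0 and 1 in ODR, and Elf3, an epithelial ETS factor, 13, 5 and 2, against 1, 2 and 0 (adjusted p = 0.000675 and 0.0313). The Elf3 call was lost without OB replicate 1 or 2 or ODR replicate 1 or 3 (adjusted p 0.0542 to 0.173). Klf5 was lower, and Ovol2 was 0 in all 6 libraries. Of the 6 mesenchymal repressors 2 were higher, Snai1 and Twist2, and 2 lower, Snai2 and Zeb2. That is 33.3% in each direction, near the shares of all genes. The Twist2 call was lost without OB replicate 1 or ODR replicate 2 or 3 (adjusted p 0.0791 to 0.217), and that of Zeb2 without OB replicate 2 (adjusted p = 0.0536). Snai1 was 384, 174 and 162 in OB, against 33, 30 and 62 in ODR (2.46 ± 0.69, adjusted p = 0.00568), while Zeb1 was 595, 493 and 521, against 557, 466 and 530. The fibroblast list summed to 16647, 17473 and 19207 in OB, against 26779, 16185 and 26328 in ODR, and its part was not tested.

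Over time, Dsp in OB peaked at day 6. It was 434 and 212 at day 1, 773 to 879 at day 6, and 346, 288 and 135 at day 14. Day 6 over day 1 gave 1.45 ± 0.47 (adjusted p = 0.0247), 1 of 7 higher against 16.7% of all genes tested, and the call was lost without OB day 1 replicate 2 (0.93, adjusted p = 0.297). Day 14 over day 6 gave -1.80 ± 0.42 (adjusted p = 0.00138), 1 of 7 lower against 28.2% of all genes. Dsg2 in OB was 3 and 2 at day 1, 6 to 7 at day 6, and 28, 23 and 19 at day 14, and its step from day 6 to day 14 passed (1.68 ± 0.43, adjusted p = 0.00295). Its step from day 1 to day 6 passed only without OA day 14 replicate 2 in the spread (1.11, adjusted p = 0.0219, against 0.0892 with it). Cldn3, listed at 0 at days 1 and 6 in OB, reached 4, 3 and 2 at day 14 (adjusted p = 0.0471). That made 2 of 7 higher, against 26.8% of all genes. These counts in OB are near or below the shares of all genes. Without OA day 14 replicate 2 in the spread, Cldn4 and Epcam were also higher at day 14 than at day 6 (adjusted p = 0.0269 and 0.0316). Leaving out any 1 of the 7 OB libraries of days 6 and 14 ended the Cldn3 call (adjusted p 0.0642 to 0.131). With 5 in place of 1 added before the log its step was 0.67, against 1.97, and the call was lost (adjusted p = 0.215), as it was with no filter (adjusted p = 0.0605) and with the replicate block (adjusted p = 0.0718), while leaving out OA day 14 replicate 2 gave an adjusted p of 1.91e-05.

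In OA, Dsg2 was 0 and 1 at day 1, 9, 7 and 6 at day 6, and 28, 155 and 50 at day 14. The step to day 6 was 2.54 ± 0.52 (adjusted p = 0.000991) and the step to day 14 was 2.90 ± 0.46 (adjusted p = 0.00112), or 2.22 without replicate 2 of day 14 (adjusted p = 0.00183). Dsp was 193 and 168 at day 1 and 512, 478 and 538 at day 6 (1.49 ± 0.50, adjusted p = 0.0272). That gave 2 of 7 higher from day 1 to day 6, against 17% of all genes tested. Cldn4, at 3 and 30 at day 1 and 1, 2 and 3 at day 6, was lower only without OA day 14 replicate 2 (-1.95, adjusted p = 0.0256, against 0.202 with it). The Dsp step was lost without either OA day 1 library (adjusted p = 0.0843 and 0.142) and without OA day 6 replicate 1 or 3 (adjusted p = 0.0548 and 0.0614). Cldn4 passed at day 14 over day 6 with replicate 2 kept (3.70 ± 1.02, adjusted p = 0.0341) and not without it (1.91, adjusted p = 0.0895), beside Dsg2, so that 2 of 7 were higher against 4.05% of all genes. Leaving out any 1 of the OA day 6 libraries ended the Cldn4 call as well (adjusted p 0.0721 to 0.095), as did adding 5 in place of 1 (adjusted p = 0.0511).

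In ODR Spint1 fell early. It was 19 and 22 at day 1, 6 and 0 at day 6, and 2, 0 and 3 at day 14. The step to day 6 was -3.02 ± 0.75 (adjusted p = 0.00677), 1 of 7 lower against 12.5% of all genes tested. It was lost without ODR day 1 replicate 2 (-2.92, adjusted p = 0.0501) or ODR day 6 replicate 2 (-1.62, adjusted p = 0.158). Dsg2 rose in ODR too, with 1 and 2 at day 1 and 15 and 7 at day 6 (2.21 ± 0.56, adjusted p = 0.00798). That was 1 of 7 higher against 12.6% of all genes, so the counts in both directions are near the shares of all genes. The Dsg2 call was lost without ODR day 1 replicate 1 or ODR day 6 replicate 1. With 5 added in place of 1 the Dsg2 step was 1.26 (adjusted p = 0.06). At day 14 Dsg2 was 30, 46 and 25 in ODR, and 0 of 7 passed from day 6 to day 14 by limma (3.95% of all genes tested did), with Dsg2 the 1 gene at an unadjusted p below 0.05. Without OA day 14 replicate 2 in the spread, this Dsg2 step passed (1.57, adjusted p = 0.0168). Dsp in ODR was 154 and 138 at day 1, 237 and 271 at day 6, and 170, 142 and 94 at day 14. Cldn4 in ODR was 8 and 9 at day 1, 1 and 0 at day 6, and 0 in every day 14 library. Its step to day 6 was -2.75, with an adjusted p of 0.121, or 0.00782 without OA day 14 replicate 2.

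Whether the step from day 6 to day 14 differed between combinations was tested as an interaction. For OB against OA it passed for Dsp, whose step was -1.80 ± 0.42 in OB and -0.02 ± 0.45 in OA. The difference was -1.77 ± 0.61 (adjusted p = 0.033). This was 1 of 7 lower, near the 15.9% of all genes tested. Without OA day 14 replicate 2 the difference for Dsp was -1.05 (adjusted p = 0.0629). Its call was also lost without any 1 OA day 6 library, OB day 6 replicate 2 or OB day 14 replicate 3 (adjusted p 0.0501 to 0.0959). For OB against ODR 0 of 7 passed by limma, 0 also at an unadjusted p below 0.05, where 35.4% of all genes tested passed. Without OA day 14 replicate 2, Cldn3 passed in both interactions (adjusted p = 0.00313 against OA and 0.00809 against ODR), at values of 4 or below in OB and 0 or 1 in the others.

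The unreplicated libraries were not tested. With BMP4 at day 9, the library deposited under both ODB and ODDR had 129 for Cldn4, 23 for Cldn3, 36 for Epcam, 32 for Dsg2, 1510 for Dsp, 15 for Pkp3 and 20 for Spint1. ODB without BMP4 had 8 for Cldn4, 4 for Cldn3, 108 for Epcam, 37 for Dsg2, 1205 for Dsp, 18 for Pkp3 and 74 for Spint1. ODDR without BMP4 had 0 for Cldn4, 2 for Cldn3, 7 for Epcam, 8 for Dsg2, 740 for Dsp, 2 for Pkp3 and 0 for Spint1. Of these 3 libraries, Cldn4, Cldn3 and Dsp were highest in the one with BMP4, while Epcam, Dsg2, Pkp3 and Spint1 were highest in ODB without it. Cldn6 was 1 in the library with BMP4, 4 in ODB without it and 0 in ODDR without it.

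The mESC library had the highest values of Cldn6, Cldn7 and Ocln in the series. There Cldn6 was 12, Cldn7 53, Ocln 118, Epcam 399, Dsg2 724 and Spint1 554. In every reprogramming library Cldn6 was at 4 or below, Cldn7 at 9 or below and Ocln at 3 or below. MEF had Dsp at 47 and the other 9 at 1 or 0.

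Among the 7 tested genes, Cldn3 and Cldn4 followed each other most closely over the 27 libraries of the fit, with a Pearson r of 0.86 on the log2(value + 1) scale. Dsp and Pkp3 followed at 0.79, while Dsg2 and Spint1 stood at 0.04. Without OA day 14 replicate 2 these were 0.83, 0.77 and -0.07. The libraries share groups and a normalization, so these values describe this set. Cldn3 entered the 7 only through its high values in OB with BMP4. Against the mean of the 10 members, and among 9561 genes that reached a group mean of at least 100, the 5 genes most alike were Sct (0.910), Sox17 (0.888), Strbp (0.866), Myh2 (0.850) and Tlx2 (0.849). Sct, Sox17 and Tlx2 reached a group mean of 100 only in OB with BMP4, at 242, 132 and 680. They could thus be ranked only because they were high where members are high, in 2 libraries. Sct encodes the hormone secretin, Sox17 an endoderm transcription factor, Strbp an RNA-binding protein, Myh2 a muscle myosin heavy chain and Tlx2 a homeobox factor. With OA day 14 replicate 2 left out their r was 0.899, 0.880, 0.846, 0.806 and 0.817. Sct and Sox17 were then still the 2 most alike, while Strbp ranked 6, Tlx2 11 and Myh2 17, so that 3 of the 5 left the first 5 without that library.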

How the data were processed

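Poly-A RNA was sequenced from 35 mouse libraries. Per the submitters' processing notes, the tools were bcl2fastq, Bowtie2 2.2.5 and RSEM, with genome build mm10. The authors deposited a normalized tag count score per gene, whose normalization is not stated in the labels or headers. Library totals ran from 4255921 to 4398785 with a common ceiling of 18690, so the values are not read counts and say nothing of sequencing depth.

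Values were transformed as log2(value + 1). A linear model with 1 mean per group covered 27 libraries in 11 groups (limma 3.58.1, R 4.3.3, 16 residual degrees of freedom) and the 13860 genes at 10 or above in 2 or more libraries. The fit pools the spread over groups. Tests were two-sided, with Benjamini-Hochberg adjustment over all genes tested and a threshold of 0.05, in 21 comparisons, 3 of them interactions. The script was tested on simulated data. The main design has no replicate block. Where groups are said not to overlap, the share of all genes that do the same is not given.

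All 10 members are named. Of each of 5 context lists, up to 3 called genes per direction are named by adjusted p, and 8 marker lists are given by summed level; a few uncalled genes of these lists were named after their values were seen. Members and lists were chosen with earlier results of these data known. From the context lists 2 genes were taken out and are not reported here. Alternatives were no filter, another added constant (5), rescaled libraries, a replicate block, limma with trend and robust options, fits of only the groups compared, the shared library kept, and each library left out. Leaving out OA day 14 replicate 2 where it is in neither group was chosen after seeing the data. Promoters are RefSeq windows on GRCm38.p6, and gene coordinates are from the GENCODE annotation of GRCm38.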

Additional observations from a re-analysis of the deposited data

Results flagged for a closer look

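In the 4 OB libraries at day 6 without BMP4, 1 library lay far from the other 3 for 2 of the 10 genes. Spint1 was 17 in replicate 2, against 24, 25 and 24. Ocln was 2 in replicate 3, against 0 in the other 3, all at or near the floor. With 7 sets of values examined this way, some can be flagged by chance, and how often was not tested.

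Effects that differed between combinations by a direct test were the BMP4 response of Dsg2, larger in OB than in ODR by 6.58 ± 0.85 on the log2 scale, and the day 14 over day 6 step of Dsp, lower in OB than in OA by -1.77 ± 0.61. The first rests on 1 ODR library with BMP4, and the second was not called without OA day 14 replicate 2.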

How the results depend on the processing

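The counts are of junction genes called, out of 7 tested in the full fit. Of 38 called member values, no alternative reversed a sign; over all settings other than leaving out a library, 226 of 261 values kept the call and 35 lost it, and of those with a library left out 181 of 241 kept it and 60 lost it. Fits of only the groups compared applied the filter anew to their own libraries, so some of the 7 were not tested there. Among these were Cldn4 and Pkp3 in OB over ODR at day 14 and Dsg2 for BMP4 in ODR. A call of a gene not tested in a setting is in neither tally above. These fits also have few degrees of freedom. They gave 1 for OB over OA at day 6 (0 in the full fit) and 2 for OB over ODR at day 14 (4). OA over ODR and OB over OA at day 14 gave 0 each (4 and 2). BMP4 in ODR gave 0 (2), OB over ODR with BMP4 gave 0 (3) and the BMP4 interaction gave 3 (1). The same fits gave 2, 1 and 1 for day 6 over day 1 in OB, OA and ODR (1, 2 and 2). For day 14 over day 6 in OA they gave 0 (2), and for the interaction of OB against OA 0 (1).

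Adding 5 in place of 1 gave 1 for BMP4 in ODR, 5 for OB over ODR with BMP4, 1 for day 14 over day 6 in OA and 1 for day 6 over day 1 in ODR. Keeping the shared library with BMP4 or under both labels gave 0 for BMP4 in ODR and 7 for OB over ODR with BMP4, and keeping it without BMP4 or under both gave 1 for day 14 over day 6 in ODR (0). OA over ODR at day 6 gave 1 with no filter, 1 with the shared library kept with BMP4 and 0 with the replicate block (2 in the full fit). The cause of these changes was not tested.

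With 1 library left out, including OA day 14 replicate 2, the counts ran from 0 to 3 for OB over ODR at day 6, 0 to 2 for OA over ODR at day 6, 4 to 6 for OB over ODR at day 14, 3 to 5 for OA over ODR at day 14, 0 to 4 for OB over OA at day 14, 4 to 7 for BMP4 in OB, 0 to 4 for BMP4 in ODR, 1 to 6 for OB over ODR with BMP4 and 1 to 3 for the BMP4 interaction. For day 6 over day 1 they ran from 0 to 2 in OB, 1 to 3 in OA and 1 to 3 in ODR, and for day 14 over day 6 from 2 to 5 in OB, 1 to 3 in OA and 0 to 1 in ODR. The interactions over time ran from 0 to 1 for OB against ODR and 0 to 2 for OB against OA. The day 1 comparisons and OB over OA at day 6 stayed at 0. Leaving out the lone ODR library with BMP4 gives no value.

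Same-numbered replicates were checked for pairing in the 6 comparisons with 3 pairs. The correlations of their deviations ran from 0.013 to 0.316, all above 0, and no comparison had all pairs over 0.1. By that cutoff the numbers were not taken to pair libraries. All 6 libraries correlated best with their own number in 4 of these comparisons, 5 in day 14 over day 6 in OA and 4 in OB over OA at day 14. In the day 1 comparisons, with 2 pairs each, the correlations ran from 0.204 to 0.235. A pairing by number is thus not excluded, and the main design does not model it. With the replicate block 5 member calls were lost: Epcam for BMP4 in OB (2.28, adjusted p = 0.107), Spint1 for OB over ODR with BMP4 (3.70, adjusted p = 0.0831), Cldn3 for day 14 over day 6 in OB (1.97, adjusted p = 0.0718), and Pkp3 and Spint1 for OA over ODR at day 6 (adjusted p = 0.0502 and 0.0513). Depth is unknown, so the counting error of low values is not known.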
